A study of Homo sapiens with 4 samples.

Results

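TIMP1, TIMP2, TIMP3, ADAM8, ADAM9, ADAM10, ADAM15, ADAM17, ADAM19 and MMP14 are 10 of the 57746 genes listed in the table, taken by their symbols. They encode the tissue inhibitors of metalloproteases, 6 membrane proteases of the ADAM family and a membrane-type matrix metalloprotease. All 10 were found, and all reached 1 RPKM (read counts divided by gene length and by library size) in at least 1 line. The list was chosen by family with the RPKM values of these lines already known, so its values are given as a description, without p-values.

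RNA came from 4 lines of the same human colorectal cancer origin, with 1 library per line. The mesenchymal lines, by their labels, are SA, derived from soft agar colonies, and SPH, derived from colonospheres. The epithelial lines are METS, taken from a metastasis that a xenograft had formed in the lung, and the parental line, DLD1. All were kept in McCoy's 5A medium with serum, penicillin and streptomycin, and the labels give no clone number, treatment or engineered allele for any of them. The series title presents the lines as a model of the EMT and of its reversal. With 1 library per line, no difference between 2 lines has a replicate check. In bulk RNA, fewer cells expressing a gene and less RNA per cell cannot be told apart.

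ADAM proteases cut the extracellular part of membrane proteins and release it, a process called shedding. ADAM17 releases TNF and several ligands of the EGF receptor in mammalian cells, and ADAM10 cuts NOTCH receptors and E-cadherin. MMP14 is anchored in the plasma membrane, cuts collagen and activates the secreted gelatinase MMP2, for which TIMP2 serves as a bridge. TIMPs block metalloproteases by binding the zinc in the active site, though not every TIMP blocks every enzyme named here. TIMP3 stands apart among the TIMPs because it binds to the extracellular matrix and inhibits several ADAMs, ADAM17 among them.

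The lines were checked against markers of their labelled class. VIM, the mesenchymal intermediate filament, stood at 12.48 RPKM in SA, 12.19 in SPH, 0.22 in METS and 0.18 in DLD1. The 5 epithelial markers summed to 1577 RPKM in SA, 1701 in SPH, 2752 in METS and 2144 in DLD1, so epithelial RNA stood high in all 4 lines. EPCAM was lowest in DLD1, at 212.20 RPKM, against 222.22 in SA and 231.10 in SPH, while the other 4 lay lower in both mesenchymal lines. ZEB1 reached 0.26 RPKM in SA and 0.23 in SPH, against 0.06 in METS and 0.02 in DLD1. The mesenchymal markers FN1 (0.43 to 0.69 RPKM) and CDH2 (0.12 to 0.21 RPKM) were slightly higher in SA and SPH but low in all 4 lines. Over the 4 lines, the summed level of 6 fibroblast markers ran from 0.22 to 0.49 RPKM, that of 2 endothelial markers from 0.15 to 0.26 RPKM and that of 3 leukocyte markers from 0.07 to 0.40 RPKM. PTPRC, CD3E, DCN and CDH5 were listed at 0 in all 4. The fibroblast marker LUM stood at 0.18 RPKM in METS and at 0 in SA, SPH and DLD1. The leukocyte marker CD68 stood at 0.07 RPKM in SA, 0.40 in SPH, 0.40 in METS and 0.37 in DLD1. Cells of a xenograft host are not human, so these human markers are a poor check for host cells in METS. Steps between low values put the depth at 48.6 to 54.0 reads for each kilobase at 1 RPKM, so a value of 0.05 RPKM rests on few reads.

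TIMP3, ADAM19 and MMP14 had the widest range over the lines on the log2(RPKM + 1) scale, and the start regions of these genes are shown to place their RNA in sequence context. Each holds 250 bases before and 50 after the start of the gene, from RefSeq on GRCh38.p14, 5′ to 3′ on the strand of the gene. The authors' build was hg19, so these positions are not coordinates of the deposited values. TIMP3 lies at chr22:32801455-32801754 on the plus strand, ADAM19 at chr5:157575726-157576025 on the minus strand and MMP14 at chr14:22836335-22836634 on the plus strand. Capitals mark GGGCGG or CCGCCC, the GC box bound by SP1, and CACCTG or CAGGTG, the E-box bound by ZEB and SNAIL factors.
TIMP3: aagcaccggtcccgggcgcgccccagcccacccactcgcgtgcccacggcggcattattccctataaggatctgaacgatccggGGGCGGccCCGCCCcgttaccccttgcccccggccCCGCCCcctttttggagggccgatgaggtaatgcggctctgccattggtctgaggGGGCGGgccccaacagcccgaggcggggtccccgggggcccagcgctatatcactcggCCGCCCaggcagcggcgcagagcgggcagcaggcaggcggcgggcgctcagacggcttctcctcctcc
ADAM19: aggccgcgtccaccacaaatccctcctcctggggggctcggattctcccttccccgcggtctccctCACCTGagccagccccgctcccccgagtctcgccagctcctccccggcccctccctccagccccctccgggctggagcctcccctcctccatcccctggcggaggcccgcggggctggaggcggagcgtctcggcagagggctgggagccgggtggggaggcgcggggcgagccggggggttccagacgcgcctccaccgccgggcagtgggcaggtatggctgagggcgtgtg
MMP14: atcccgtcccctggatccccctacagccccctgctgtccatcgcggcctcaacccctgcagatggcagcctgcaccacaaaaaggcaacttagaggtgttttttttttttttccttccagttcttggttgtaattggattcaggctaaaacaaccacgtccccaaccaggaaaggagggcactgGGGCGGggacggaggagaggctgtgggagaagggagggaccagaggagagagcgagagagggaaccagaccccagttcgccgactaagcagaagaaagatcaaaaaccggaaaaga
Searched on both strands, TIMP3 held 5 GC boxes and no E-box, ADAM19 held 1 E-box and no GC box, and MMP14 held 1 GC box and no E-box. No matches overlapped. Of 34796 start regions of this length, 44.9% held a GC box and 20.6% an E-box. The AP-1 motif TGANTCA, found in 7.73% of start regions, was in none of these windows. TIMP3 held 31 CG dinucleotides, more than 79.3% of start regions, ADAM19 held 26 (more than 69.9%) and MMP14 held 10 (more than 43.7%). A match describes the letters alone, and neither binding nor methylation was measured here.

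**Figure D1:**
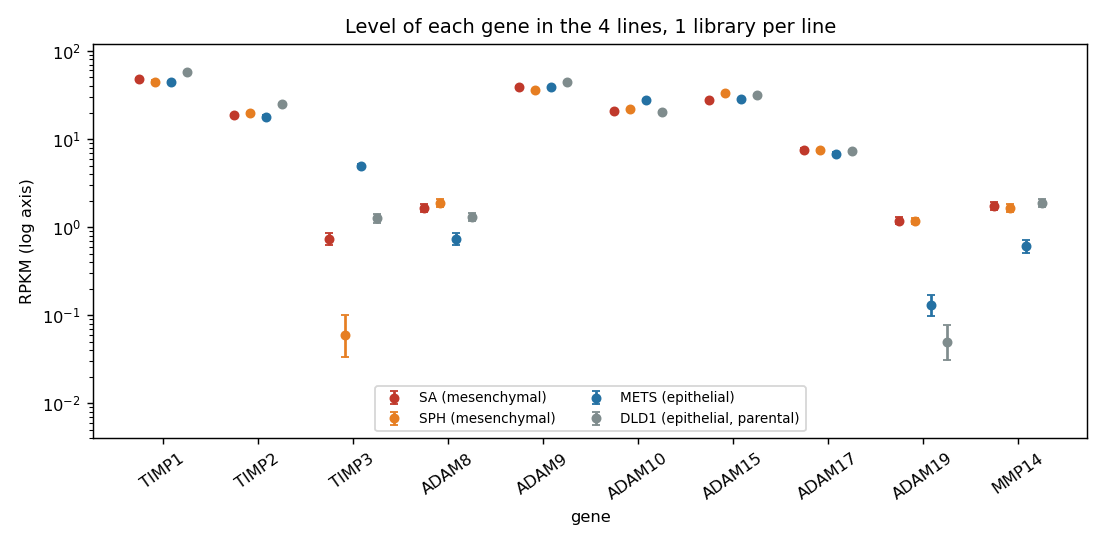
Level of each of the 10 genes in SA, SPH, METS and DLD1 (RPKM, log axis, 1 point per line), with 95% Poisson intervals from the estimated reads, which cover counting error only. TIMP1, TIMP2, ADAM9, ADAM10, ADAM15 and ADAM17 keep close levels in the lines, while TIMP3 spans 0.06 to 4.97 RPKM and ADAM19 spans 0.05 to 1.18 RPKM.

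Among the inhibitors, TIMP3 was the member with the widest range. TIMP3 RNA stood at 0.73 RPKM in SA, 0.06 in SPH, 4.97 in METS and 1.26 in DLD1. METS was the highest and SPH the lowest, and both mesenchymal lines lay below both epithelial lines. The value in SPH rests on about 14.6 reads, with a 95% Poisson interval of 0.0333 to 0.0997 RPKM, while METS had an interval of 4.69 to 5.27 RPKM. Against DLD1 the log2 fold was -0.39 in SA, -1.09 in SPH and 1.40 in METS. METS had 82.8 times the RPKM of SPH and 6.81 times that of SA, and SPH had 0.0822 times that of SA. The pair of mesenchymal lines thus differed between themselves by more than their counting intervals. The log2 scale with 1 RPKM added understates this difference (SPH against SA, -0.71).

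TIMP1 and TIMP2 were far more abundant and varied little. TIMP1, a secreted inhibitor that also binds CD63 at the cell surface, stood at 48.05 RPKM in SA, 44.72 in SPH, 44.23 in METS and 57.77 in DLD1. TIMP2, the bridge between MMP14 and the MMP2 precursor, stood at 18.70 RPKM in SA, 19.75 in SPH, 17.98 in METS and 25.14 in DLD1. For both genes DLD1 was the highest of the lines, and the highest level was 1.31 times the lowest for TIMP1 and 1.40 times for TIMP2. The comparisons of SA, SPH and METS with DLD1 share the 1 DLD1 library. TIMP1, TIMP2 and TIMP3 together summed to 67.5 RPKM in SA, 64.5 in SPH, 67.2 in METS and 84.2 in DLD1. TIMP3 made up 1.08% of that sum in SA, 0.093% in SPH, 7.4% in METS and 1.5% in DLD1. Even in METS, TIMP1 held the largest part, at 65.8%.

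**Figure D2:**
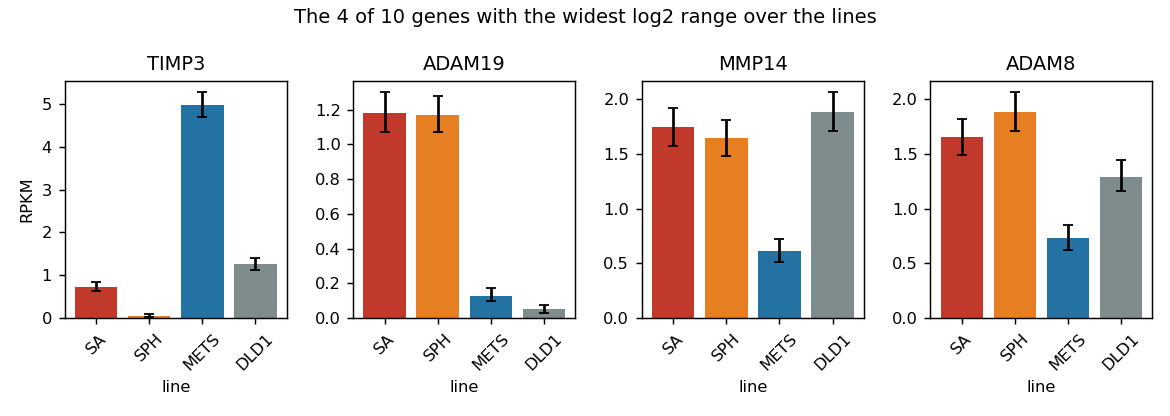
RPKM of TIMP3, ADAM19, MMP14 and ADAM8 in SA, SPH, METS and DLD1 (bars start at 0, 1 library per line; error bars are 95% Poisson intervals from the estimated reads). TIMP3 peaks in METS, ADAM19 is high in SA and SPH, and MMP14 and ADAM8 are lowest in METS.

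Of the ADAM proteases, ADAM19 was the member that separated the classes most. ADAM19, a protease known to process neuregulin, stood at 1.18 RPKM in SA and 1.17 in SPH, against 0.13 in METS and 0.05 in DLD1. The values of SA and SPH were nearly equal, and both lay above both epithelial lines. Its level was 23.6 times that of DLD1 in SA and 23.4 times in SPH, or 1.05 in each on the log2(RPKM + 1) scale. About 20.8 reads in DLD1 and 50.3 in METS stand behind the low values, with 95% Poisson intervals of 0.0309 to 0.0766 RPKM in DLD1 and 0.0966 to 0.171 RPKM in METS. ADAM19 reached 1 RPKM in the mesenchymal lines alone. Even there it was a minor part of the family, with 1.20% of the summed RPKM of the 6 ADAM genes in SA and 1.16% in SPH, against 0.127% in METS and 0.0472% in DLD1.

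ADAM8, a protease best known from leukocytes, was the other low member of the family. It stood at 1.65 RPKM in SA and 1.88 in SPH, against 0.73 in METS and 1.29 in DLD1. The classes did not overlap, but METS and DLD1 lay further apart than DLD1 and SA. PTPRC, the pan-leukocyte marker, was listed at 0 in all 4 lines. CD68, another leukocyte marker, ranged from 0.07 RPKM in SA to 0.40 in SPH and METS.

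The remaining ADAM genes were more abundant and varied less, the highest level being at most 1.38 times the lowest. ADAM9, which has a broad range of membrane substrates, stood at 39.36 RPKM in SA, 35.76 in SPH, 38.67 in METS and 44.89 in DLD1. ADAM15, whose extracellular part carries an integrin-binding RGD motif in human, stood at 27.49 RPKM in SA, 32.95 in SPH, 28.14 in METS and 32.01 in DLD1. Neither gene followed the class labels. ADAM10 was highest in METS, at 28.04 RPKM, against 20.71 in SA, 21.80 in SPH and 20.32 in DLD1, a log2 fold of 0.45 between METS and DLD1. ADAM17 had the narrowest range of the 10 genes, at 7.57 RPKM in SA, 7.42 in SPH, 6.84 in METS and 7.34 in DLD1. Its highest level was 1.11 times its lowest. The 6 ADAM genes summed to 98.0 RPKM in SA, 101.0 in SPH, 102.5 in METS and 105.9 in DLD1.

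MMP14 was low and set METS apart. It stood at 1.74 RPKM in SA, 1.64 in SPH, 0.61 in METS and 1.88 in DLD1. SA, SPH and DLD1 lay close together with overlapping counting intervals, and METS had 0.324 times the level of DLD1. On the log2(RPKM + 1) scale the METS difference from DLD1 was -0.84, short of 2-fold, whereas it was -1.48 with 0.1 RPKM added. The class difference of 0.32 turned to -0.10 without METS.

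**Figure D3:**
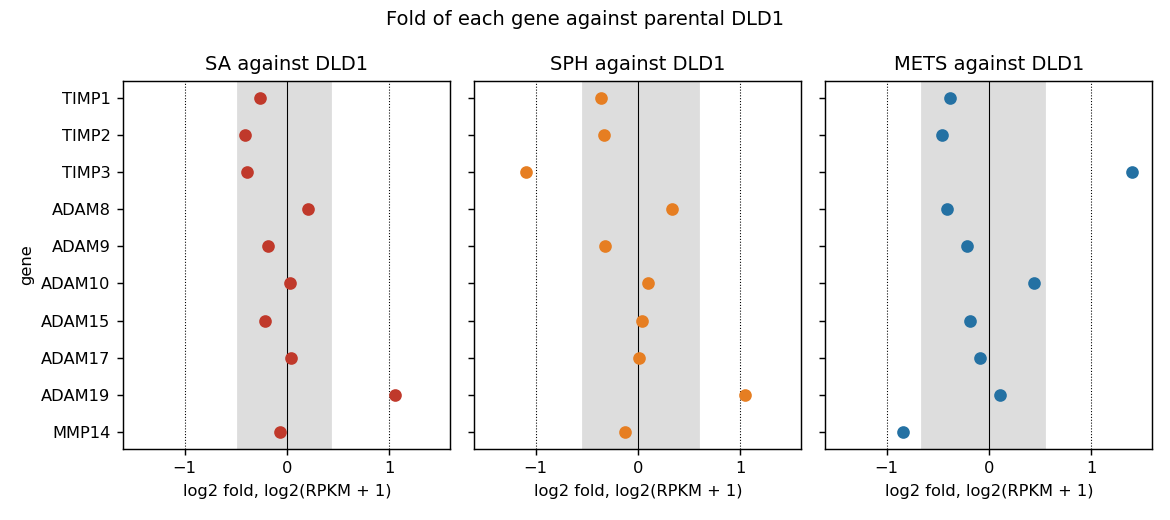
Log2 fold on the log2(RPKM + 1) scale of each gene in SA, SPH and METS, each against DLD1. Grey bands hold the central 95% of all genes in that comparison and dotted lines mark 2-fold. ADAM19 lies at 1.05 in SA and in SPH, and TIMP3 at -1.09 in SPH and 1.40 in METS.

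The members were also set against a 2-fold rule on the log2(RPKM + 1) scale. In SA, 1 of 10 members (ADAM19) was at least 2-fold higher than in DLD1 and none was 2-fold lower, while 0.44% of 11367 genes were 2-fold higher and 0.238% lower. In SPH, 1 of 10 (ADAM19) was higher and 1 (TIMP3) lower, where 0.716% of 11446 genes were higher and 0.542% lower. In METS, 1 of 9 members that reached 1 RPKM in METS or DLD1 (TIMP3) was higher and none lower, where 0.523% of 11275 genes were higher and 0.896% lower. Because the members were chosen with these folds known, nothing is read from these counts. With 5 RPKM added before the log none of these folds reached 2-fold (ADAM19 0.29 in SA and in SPH, TIMP3 -0.31 in SPH and 0.67 in METS). With 0.1 RPKM added they were 3.09 and 3.08 for ADAM19 in SA and SPH, and -3.09 and 1.90 for TIMP3 in SPH and METS. The median log2 fold of the members was -0.13 in SA, -0.06 in SPH and -0.21 in METS, where the medians of all genes were 0.03, 0.03 and -0.03 in the same order.

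The mesenchymal class did not overlap the epithelial class for 4 of 10 members. ADAM8, ADAM17 and ADAM19 lay higher in both mesenchymal lines, as did 24.7% of 11262 genes. For ADAM17 the counting intervals of SPH (7.20 to 7.65 RPKM) and DLD1 (7.12 to 7.56 RPKM) overlapped, and with median-of-ratios scaling the SPH log2 fold was -0.01 and the classes overlapped. TIMP3 lay lower in both, as did 13.1%. With 2 lines in each class, 37.8% of all genes had classes that did not overlap, which is close to the share among the members.

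The order of the 10 genes by level was much the same in each line. TIMP1 ranked first, ADAM9 next and ADAM15 after it in SA, SPH, METS and DLD1, and ADAM17 was the sixth in each. MMP14, ADAM8, ADAM19 and TIMP3 filled the lower ranks. TIMP3 ranked last in SA and SPH, whereas ADAM19 ranked last in METS and DLD1. Neighbours whose 95% counting intervals overlapped were MMP14 and ADAM8 in SA, SPH and METS, ADAM15 and ADAM10 in METS, and ADAM8 and TIMP3 in DLD1.

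The genes with profiles nearest to TIMP3, ADAM19 and MMP14 were found by the Euclidean distance between log2(RPKM + 1) profiles over 4 libraries, each centred on its own mean, among 11664 genes. For TIMP3 they were the secreted mucin gene MUC5AC (distance 0.288), LY6G6D (0.428) and the mitochondrial creatine kinase gene CKMT1A (0.442). MUC5AC stood at 10.51 RPKM in SA, 6.34 in SPH, 31.61 in METS and 11.90 in DLD1. LY6G6D overlaps a neighbouring gene and CKMT1A has a near-identical copy, so the reads of either may be shared. For ADAM19 they were the Hedgehog pathway transcription factor gene GLI3 (0.0827), ANO6 (0.0853), a membrane protein of the anoctamin family, and PTPRN2 (0.0869). GLI3 stood at 1.14 RPKM in SA and 1.02 in SPH, against 0.03 in METS and 0.01 in DLD1. For MMP14 they were RP11-295K3.1 (0.08), SFXN2 (0.0958) and SNHG17 (0.097), all lowest in METS. With 4 libraries, many genes can share such a shape.

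Further genes of the pathway are reported from 13 lists covering 145 genes, of which 144 were in the table. Of the 58 tested among them none passed the class test over 11262 genes (limma-trend, Benjamini-Hochberg adjusted p under 0.05), and none passed with limma without trend. In the limma-trend test 0.32% of all genes passed as higher and 0.0355% as lower. At an unadjusted p under 0.05 there were 13 of the 58, against 974 of all 11262 genes. Their median class log2 fold was -0.02, where that of all genes was 0.04. Without DLD1 7 of the 58 passed (AREG, CD44, CD9, MET, SDC4, SERPINE2 and TNFRSF1B, limma-trend), and so did 305 of all 11262 genes. Since each class is made of distinct lines, the error behind these p-values is the spread from line to line, and cultures of the same line were not compared.

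**Figure D4:**
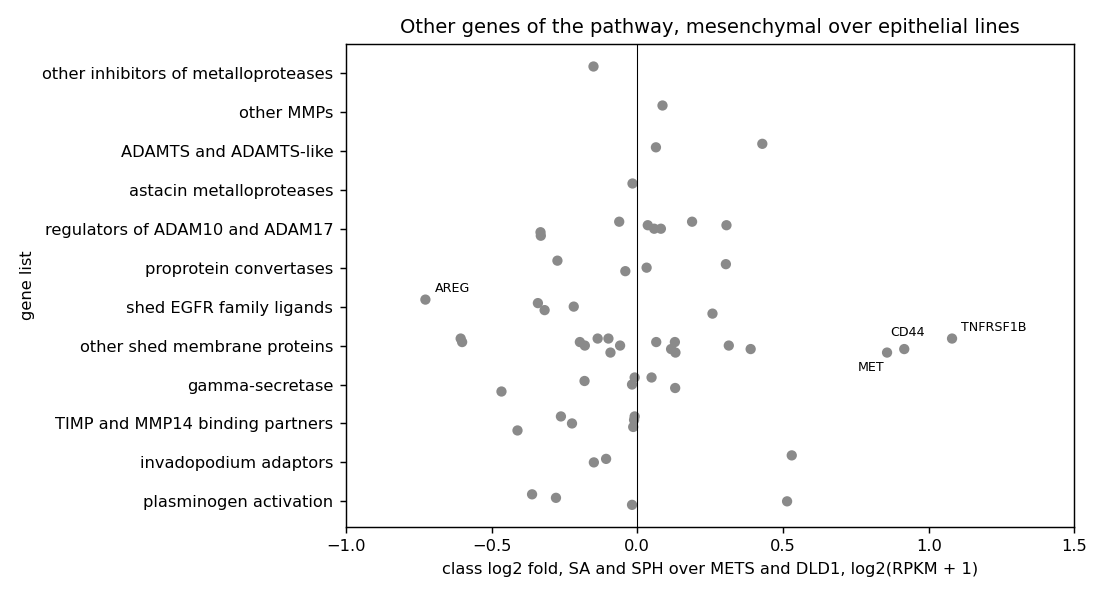
Class log2 fold (SA and SPH over METS and DLD1, log2(RPKM + 1) scale) of the 58 tested genes in the further pathway lists, 1 point per gene. The points run from AREG at -0.73 to TNFRSF1B at 1.08, and none passed adjusted p 0.05.

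Among genes of plasminogen activation, PLAUR, the urokinase receptor gene, stood at 3.45 RPKM in SA and 4.04 in SPH, against 4.59 in METS and 4.91 in DLD1. PLAU, the urokinase gene, stood at 1.95 RPKM in SA and 2.25 in SPH, against 2.67 in METS and 3.31 in DLD1. SERPINE2, an inhibitor of serine proteases, stood at 3.18 RPKM in SA and 3.24 in SPH, against 1.19 in METS and 2.97 in DLD1. SERPINB5, known as maspin, stood at 3.60 RPKM in SA, 8.27 in SPH, 8.59 in METS and 3.56 in DLD1, so each class held 1 high and 1 low line.

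Most other metalloproteases were barely measured. Of 22 further MMPs, 2 reached 1 RPKM in a line. MMP15, a membrane-type relative of MMP14, was the most abundant of them, at 18.15 RPKM in SA, 23.46 in SPH, 19.99 in METS and 18.81 in DLD1. Its level was above that of MMP14 in every line. MMP23B stood at 1.01 RPKM in SA and 0.72 in SPH, against 0.70 in METS and 0.56 in DLD1. MMP2, a well-known target of MMP14, did not exceed 0.03 RPKM in any line. None of 15 further ADAM genes reached 1 RPKM, and 9 of them were listed at 0 in all 4 lines. The highest was ADAM22, at 0.82 RPKM in SA, 0.83 in SPH, 0.62 in METS and 0.68 in DLD1.

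Of 26 ADAMTS and ADAMTS-like genes 2 reached 1 RPKM. ADAMTS13, which cuts von Willebrand factor, stood at 1.05 RPKM in SA and 1.29 in SPH, against 0.57 in METS and 0.65 in DLD1. ADAMTSL5 ranged from 3.41 to 3.63 RPKM. Among 6 astacin proteases, BMP1, which processes procollagen, reached 1 RPKM, at 4.83 RPKM in SA, 4.76 in SPH, 4.39 in METS and 5.40 in DLD1. Of the further inhibitors TIMP4 stood at 2.19 RPKM in SA, 1.53 in SPH, 1.97 in METS and 2.35 in DLD1, so in SA, SPH and DLD1 its level was above that of TIMP3. The membrane inhibitor RECK did not exceed 0.70 RPKM.

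Of 9 regulators of ADAM10 and ADAM17 8 reached 1 RPKM, while TSPAN10 did not exceed 0.08 RPKM in any line. Those 8 were tested and none passed the class test, with a median class log2 fold of 0.05 where all genes had 0.04. RHBDF2, an inactive rhomboid that carries ADAM17 to the surface, stood at 2.93 RPKM in SA and 3.64 in SPH, against 2.20 in METS and 2.73 in DLD1. TSPAN5 and TSPAN14, tetraspanins that bind ADAM10, were highest in METS. TSPAN5 stood at 4.84 RPKM in SA, 3.52 in SPH, 6.05 in METS and 4.93 in DLD1, and TSPAN14 at 4.58, 4.43, 6.31 and 5.56 RPKM in the same order. TSPAN15, another partner of ADAM10, was lowest in METS, at 11.41 RPKM, against 12.64 in SA, 18.15 in SPH and 15.22 in DLD1. TSPAN17, from the same list, was also lowest in METS, at 11.03 RPKM, against 12.07 in SA, 12.13 in SPH and 12.58 in DLD1. TSPAN33 was nearly equal in METS (1.43 RPKM) and SA (1.44 RPKM), against 1.84 in SPH and 1.63 in DLD1. Against DLD1, 6 of the 8 regulators lay lower in METS, as did 6 in SA and 5 in SPH. Their median log2 fold was -0.19 in METS, -0.08 in SA and -0.03 in SPH. The medians of all genes were -0.03, 0.03 and 0.03 in the same order. The share of all genes below DLD1 is not given here, so nothing is read from these counts. FURIN, the convertase that removes the inhibitory propeptide of many ADAMs and of MMP14, stood at 15.16 RPKM in SA, 18.71 in SPH, 19.47 in METS and 21.75 in DLD1.

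None of the tested substrates of these sheddases passed the class test. The substrates named below had their highest or lowest level in METS, but they were picked for a wide range over the lines. The share of all genes with an extreme in METS was not counted. The EGF receptor ligand gene AREG stood at 72.57 RPKM in SA and 69.70 in SPH, against 146.77 in METS and 95.50 in DLD1. EREG, another such ligand, stood at 88.32 RPKM in SA and 92.07 in SPH, against 131.36 in METS and 99.83 in DLD1. Of 5 tested EGF family ligands 4 lay lower in both mesenchymal lines than in both epithelial lines and 1, BTC, lay higher, where 13.1% of all genes lay lower and 24.7% higher. CD44, a hyaluronan receptor cut by MMP14 and ADAM10, stood at 5.84 RPKM in SA and 5.60 in SPH, against 1.36 in METS and 4.37 in DLD1. MET, the receptor of hepatocyte growth factor, stood at 23.33 RPKM in SA and 22.68 in SPH, against 8.97 in METS and 16.61 in DLD1. The TNF receptor gene TNFRSF1B stood at 4.17 RPKM in SA and 5.48 in SPH, against 1.5 in METS and 2 in DLD1 (class log2 fold 1.08). Of 25 listed substrates outside the EGF family 17 were tested, with 4 higher and 5 lower in both mesenchymal lines than in both epithelial lines, against the same shares of all genes (24.7% higher and 13.1% lower).

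None of the tested genes of gamma-secretase, of the partners of TIMPs and MMP14 and of the invadopodium adaptors passed the class test. The 6 gamma-secretase genes, which cut the stubs left by ADAM shedding, had a median class log2 fold of -0.01. APH1B, a subunit of that enzyme, stood at 0.91 RPKM in SA and 0.92 in SPH, against 1.81 in METS and 1.49 in DLD1. Of the partners 6 were tested. CD63, the surface partner of TIMP1, ranged from 80.40 to 83.39 RPKM. The tetraspanin gene CD9 was highest in METS, at 188.15 RPKM, against 95.29 in SA, 112.53 in SPH and 101.18 in DLD1. SH3PXD2A, which encodes the invadopodium adaptor TKS5 that binds ADAM15 and ADAM19, stood at 1.86 RPKM in SA and 3.11 in SPH, against 1.44 in METS and 1.31 in DLD1.

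Overlapping genes limit what a few of these levels mean, since the use of strand in counting is not given in the sources used here. In GENCODE 29, TIMP1 lies within SYN1 and TIMP3 within SYN3, each on the opposite strand and with no shared exon bases. SYN1 did not exceed 0.04 RPKM in any line and SYN3 did not exceed 0.02. ADAM17 shares 1323 exon bases, 12.3% of its exon length, with IAH1 on the opposite strand. IAH1 stood at 3.29 RPKM in SA, 4.08 in SPH, 5.74 in METS and 3.76 in DLD1. ADAM15 shares 306 exon bases (4.65%) with DCST1 on the same strand, which did not exceed 0.20 RPKM. TIMP2 shares 367 exon bases (6.52%) with AC022966.1 on the opposite strand and 198 (3.52%) with CEP295NL on the same strand, and no level was matched to either symbol. ADAM10 shares 136 exon bases with AC018904.1 and ADAM17 a further 142 with AC073195.1, both on the opposite strand and also without a matched level. ADAM19 shares 62 exon bases with CYFIP2 on the opposite strand, which ranged from 4.74 to 5.58 RPKM.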

How the data were processed

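RNA of 4 human colorectal cancer lines was sequenced on Illumina libraries, per the labels' protocols. The authors deposited 1 RPKM value for each gene in each line, with 2 decimals. The unit was read from the values, because value times exon length in kb (GENCODE 29) summed to 913210 to 924096 per line over 34023 genes. Per the submitters' processing notes, hg19 was the build. For the aligner, counter, annotation and use of strand the sources used here give nothing.

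The deposited values were taken to log2(RPKM + 1). The class test took genes that reached 1 RPKM in 2 or more libraries (SA and SPH against METS and DLD1; limma-trend, limma 3.58.1, R 4.3.3, Benjamini-Hochberg). The class test was tested on simulated data. Pairs of lines used genes of at least 1 RPKM in either library and a 2-fold rule, with no test. The reads behind a value were estimated from the step between low values of genes of 300 to 800 bases, which gave 48.6 reads per kb at 1 RPKM in SA, 52.8 in SPH, 50.2 in METS and 54.0 in DLD1. Intervals are exact 95% Poisson intervals of those estimates, cover counting error only and assume the GENCODE 29 exon length.

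The text names all members, at most 4 genes per list (those passing the class test, then those with the widest log2 range), genes overlapping a member (those with no shared exon bases only for TIMP1 and TIMP3), and the 3 nearest profiles of the 3 widest members. ADAM22, RECK, MMP2, CD63, SDC4, TSPAN10, TSPAN17 and TSPAN33 were named after their values were seen. So were ZEB1, FN1, CDH2, LUM, CD68, PTPRC and the other markers at 0. The members and lists were chosen with earlier results of these data known. A few listed genes are not reported here. Start regions came from RefSeq (GRCh38.p14), matched by symbol for 8 members. Alternatives were other pseudocounts, filters and fold rules, leaving out each library, median-of-ratios scaling and limma without trend. Python 3.11.15 with pandas 2.3.3 and scipy 1.17.1 was used.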

Additional observations from a re-analysis of the deposited data

Results flagged for a closer look

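For 3 members METS lay on one side of DLD1 and both mesenchymal lines on the other, on the log2(RPKM + 1) scale. The share of all genes with this pattern was not counted, so nothing is read from the number of members. TIMP3 had a log2 fold of 1.40 in METS and a mean of -0.74 in SA and SPH, so that METS minus the mesenchymal mean was 2.14. ADAM8 had -0.41 in METS and a mean of 0.27 in SA and SPH, a difference of -0.68. ADAM17 had -0.09 in METS and a mean of 0.03 in SA and SPH, a difference of -0.12. The counting intervals of ADAM17 in SA (7.34 to 7.81 RPKM) and SPH (7.20 to 7.65 RPKM) overlapped that of DLD1 (7.12 to 7.56 RPKM). With median-of-ratios scaling the SPH log2 fold of ADAM17 was -0.01, on the same side as METS. These differences were not tested, because each line has 1 library, and the folds share the DLD1 library.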

How the results depend on the processing

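The class test called 40 genes. It called 26 with a pseudocount of 0.1, 5 with a minimum of 5 RPKM, and 0 of 24097 with no filter (2208 at an unadjusted p under 0.05, limma-trend). Leaving out 1 library gave 5 to 305 genes (5 without SA, 6 without SPH, 27 without METS, 305 without DLD1). The lone line of a class is then assumed to vary like the others. Of the 58 pathway genes 7 passed without DLD1, and none passed under any other alternative run. Genes at least 2-fold apart from DLD1 numbered 77 in SA, 144 in SPH and 160 in METS. These counts became 211, 350 and 368 with a pseudocount of 0.1, and 12, 24 and 31 with a pseudocount of 5. With a minimum of 5 RPKM they were 29, 61 and 88, and with a 4-fold rule 9, 13 and 14. Genes whose classes did not overlap numbered 4256, 7894 with no filter and 2374 with a minimum of 5 RPKM. The cause of these shifts was not tested beyond the number of genes each filter leaves.

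Of 160 alternative values of 40 member folds, 8 had another sign than the main value. These were the class folds of TIMP1 (0.07) and TIMP2 (0.09) without DLD1, of ADAM10 (0.06) and MMP14 (-0.10) without METS, of ADAM15 in 3 settings (main value 0.00), and the SPH fold of ADAM17 (-0.01 with median-of-ratios scaling). The folds of TIMP3 and ADAM19 had the same sign under every alternative run, but this was largely fixed in advance. No pseudocount can change the sign of a fold between a line and DLD1. Where the classes do not overlap, neither a pseudocount nor leaving out a library can change the sign of the class fold. Many of the 160 values therefore could not have had another sign, and the count of 8 is no measure of stability. No paired analysis was possible because each line has 1 library. Depth limits the lowest values, about 14.6 reads for TIMP3 in SPH and 20.8 for ADAM19 in DLD1.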
